A study of Mus musculus with 21 samples.

Results

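The data described here are the step from 1 to 3 h after TCPOBOP (TCP) in mouse liver, that is, the 3 arrays taken at 3 h against the 3 arrays taken at 1 h over all 11442 genes tested. These are 6 of the 21 arrays of the series, and each array holds the liver RNA of 1 female CD-1 mouse, an outbred stock, about 3 months old. TCP was given once by gavage at 3 mg/kg in dimethyl sulfoxide and corn oil, so that both groups received the same agent and vehicle and differ by design in the time to sacrifice. The slides that carried their arrays also differed in part, as given below. No vehicle-treated mouse and no control killed at 1 or 3 h is among the arrays, and a change over these hours therefore combines the response to TCP with handling, gavage, vehicle, feeding and time of day, which cannot be told apart. The remaining 15 arrays enter only the normalisation, the choice of probes tested and the estimate of the spread, except where they are named. They are 3 untreated controls, 3 livers taken 6 h after TCP and 9 taken after removal of most of the liver. This removal is called partial hepatectomy or PH, with 3 livers at each of 1 h, 3 h and 6 h. The arrays were Illumina mouse bead arrays, and levels are given as log2 intensity after background correction and quantile normalisation, so that a difference of 1 is a doubling.

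TCP binds and activates the constitutive androstane receptor (CAR, gene Nr1i3), a nuclear receptor that hepatocytes hold in the cytoplasm until it is activated. Activated CAR enters the nucleus, pairs with the retinoid X receptor and switches on genes of drug metabolism, with Cyp2b10 as its classical target in mice, and it also drives hepatocytes into division without prior tissue loss. The first hours after the dose are the time in which immediate transcriptional responses give way to the first induced enzymes.

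Between 16210 and 16941 probes were detected (detection p under 0.05) on the arrays at 3 h and between 15982 and 16940 at 1 h. Arrays of the same time correlated at r = 0.9795 to 0.9826 at 1 h and at 0.9731 to 0.9785 at 3 h across genes, and arrays of different times at 0.9675 to 0.979. The correlations within 1 h lay above those between the times, and those within 3 h lay among them. All 10 hepatocyte markers measured, such as Alb and Apoa1, were detected on every one of the 6 arrays, and their mean level was 13.60 to 13.85 at 1 h and 13.71 to 13.80 at 3 h. The 6 arrays lay on 3 beadchips, slides that hold several arrays each. Replicates 1 and 2 at 1 h and replicates 2 and 3 at 3 h shared beadchip 2, replicate 3 at 1 h lay on beadchip 4 and replicate 1 at 3 h on beadchip 1. A comparison of 2 against 2 arrays within beadchip 2 was therefore possible.

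Of the 32851 promoter windows that RefSeq's table holds (build GRCm38.p6, each from 250 bases before to 50 bases after a transcript's start), 14 of the 24 genes called below had 1. The windows of Cyp2b10 (chr7:25897408-25897707, plus strand) and Cyp2b23 (chr7:26686381-26686680, minus strand) are shown because these are the called members of the Cyp2b family of CAR-induced enzymes. Capitals mark the only match of each window to TTGCNNAA, a short form of the C/EBP motif, searched on both strands.
Cyp2b10: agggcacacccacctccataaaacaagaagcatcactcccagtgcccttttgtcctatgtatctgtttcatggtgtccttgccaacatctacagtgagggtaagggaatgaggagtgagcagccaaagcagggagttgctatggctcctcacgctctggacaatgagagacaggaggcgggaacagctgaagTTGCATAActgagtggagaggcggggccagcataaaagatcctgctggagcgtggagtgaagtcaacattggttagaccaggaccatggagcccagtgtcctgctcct
Cyp2b23: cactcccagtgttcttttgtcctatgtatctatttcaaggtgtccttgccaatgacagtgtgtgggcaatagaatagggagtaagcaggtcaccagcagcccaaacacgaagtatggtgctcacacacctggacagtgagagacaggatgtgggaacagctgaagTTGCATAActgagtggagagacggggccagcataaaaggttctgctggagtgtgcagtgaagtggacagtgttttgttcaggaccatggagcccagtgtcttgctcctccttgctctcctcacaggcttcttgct
The match reads TTGCATAA in both, and it lies 58 to 51 bases before the start in Cyp2b10 and 85 to 78 bases before it in Cyp2b23. The windows were alike in sequence, with 222 identical bases among 261 aligned (85.1%). TTGCNNAA stands in 10.8% of all windows, and it matched 5 of the 14 called genes with a window. Besides Cyp2b10 and Cyp2b23 these were Gm15408, Dnajb4, which was lower at 3 h, and Rarb, whose match is not marked below. Direct repeats with a spacer of 4 on either strand, of the kind that CAR and its partner can bind, did not match the window of any called gene, and each of the 3 forms searched stood in at most 0.0152% of all windows. With forms this rare, and with windows that reach only 250 bases before the start, the lack of a match does not show that such sites are absent.

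The windows of Rarb (chr14:16575427-16575726, minus strand) and Cyp26a1 (chr19:37697558-37697857, plus strand) are shown because both genes are classical targets of retinoic acid and had high values at 3 h. Capitals mark a direct repeat of half-sites that end in GTTCA with a spacer of 5, searched on both strands, of the kind that retinoic acid receptors bind, which was added to the search after the values were seen.
Rarb: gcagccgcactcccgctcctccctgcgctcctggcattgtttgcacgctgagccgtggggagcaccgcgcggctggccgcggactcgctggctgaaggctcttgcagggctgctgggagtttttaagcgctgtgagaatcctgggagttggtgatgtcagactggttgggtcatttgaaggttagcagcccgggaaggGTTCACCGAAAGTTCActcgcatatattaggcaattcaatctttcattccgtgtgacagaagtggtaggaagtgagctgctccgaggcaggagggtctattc
Cyp26a1: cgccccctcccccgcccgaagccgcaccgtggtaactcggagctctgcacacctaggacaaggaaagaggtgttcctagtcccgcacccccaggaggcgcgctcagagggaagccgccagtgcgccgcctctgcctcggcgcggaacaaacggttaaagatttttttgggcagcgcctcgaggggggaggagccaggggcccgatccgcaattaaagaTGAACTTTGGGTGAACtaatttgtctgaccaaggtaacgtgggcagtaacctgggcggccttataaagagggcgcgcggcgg
In Rarb the match lies 52 to 37 bases before the start. In Cyp26a1 it is read on the opposite strand and lies 32 to 17 bases before the start. Matches to this repeat were found in 11 of the 32851 windows (0.0335%).

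From 1 to 3 h after TCP, 24 of 11442 genes were called (0.21%), 14 higher at 3 h (0.122%) and 10 lower (0.0874%). A gene was called at an adjusted p under 0.05 (limma, Benjamini-Hochberg over all genes) and a change of at least 1.5-fold. The called genes that were higher included the drug-metabolising enzymes Cyp2b10, Cyp2b23 and Sult1d1, the retinoic acid receptor Rarb, the adhesion molecule Vcam1 and the phosphoinositide kinase subunit Pik3cb. Those that were lower included the semaphorin receptor Plxna2, the fibronectin receptor subunit Itga5, the inositol phosphate kinase Itpka and the co-chaperone Dnajb4. All 24 had groups that did not overlap, which follows largely from their choice by the same values and is no separate support. Of all genes tested, 15% had groups that did not overlap (6.57% higher and 8.44% lower at 3 h), and 10.2% reached an unadjusted p under 0.05. The median change over all genes was -0.02 on the log2 scale. The number called depended on single livers, and was 4 without TCP 1 h replicate 1, 7 and 8 without replicates 2 and 3 at 1 h, 6 without replicate 1 or replicate 3 at 3 h, and 41 without replicate 2 at 3 h. Cyp2b10, Vps37b, Snhg5 and Plxna2 were called in each of these 6 fits. Of the genes just outside the threshold, at an adjusted p of 0.0506 in limma, Son changed by 1.21, Ifnar2 by 1.28, Caskin2 by 1.44, Ralgps2 by -1.14, Egln3 by -0.97 and Abce1 by -0.80.

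**Figure D1:**
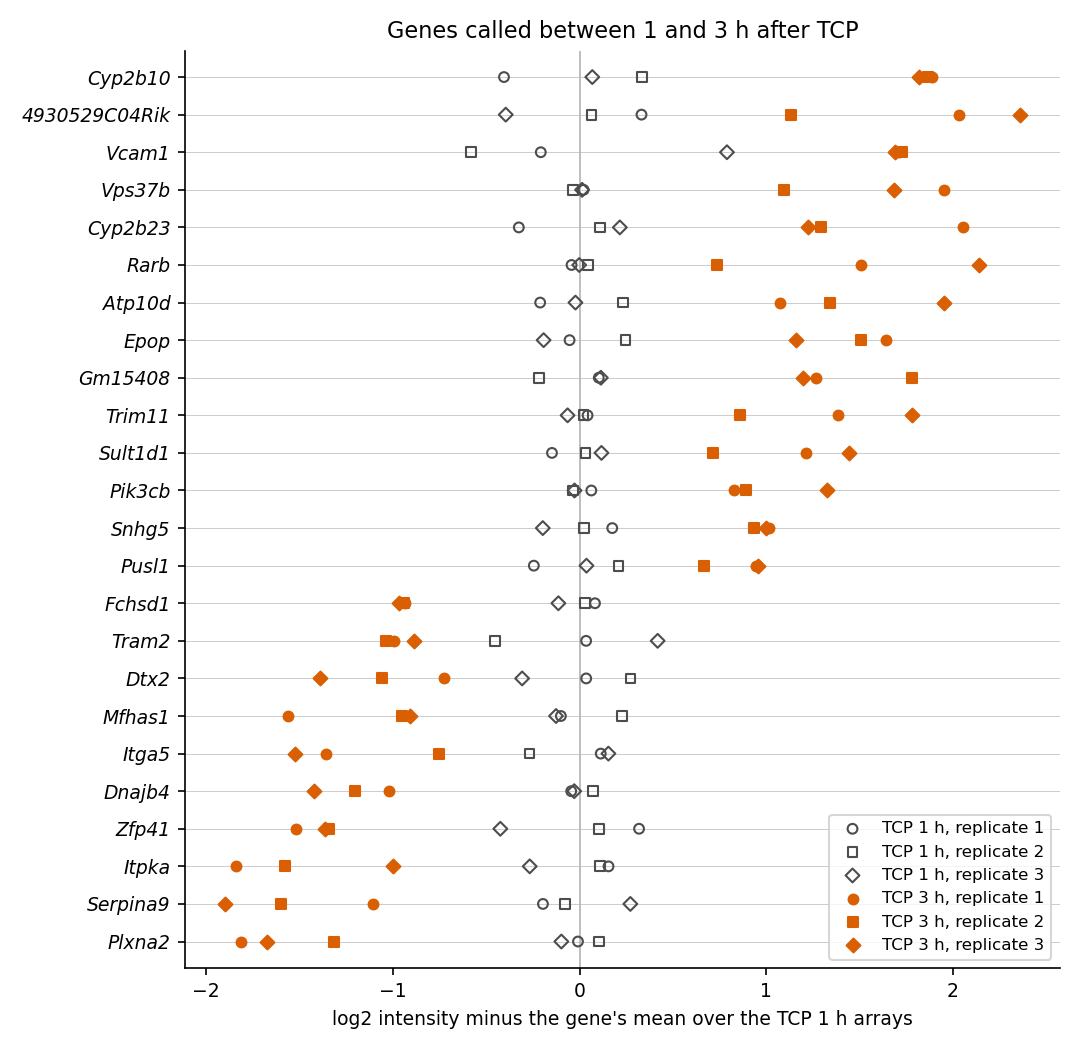
Level of each of the 24 called genes on the 6 arrays, as log2 intensity minus the gene's mean over the TCP 1 h arrays (horizontal axis). Open symbols are the 3 arrays at 1 h and filled symbols the 3 at 3 h, and in no gene do open and filled symbols overlap.

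Cyp2b10, a phenobarbital-inducible cytochrome P450 and the classical CAR target, had log2 levels of 12.48, 13.22 and 12.96 on the arrays at 1 h and of 14.78, 14.75 and 14.70 at 3 h. The livers at 3 h (SD 0.04, n = 3) were tightly grouped and lay above every liver at 1 h (SD 0.38, n = 3). The change was 1.86 (SE 0.25), or 3.62-fold, with an adjusted p of 0.00496 in limma, the largest change among the called genes. The livers at 1 h overlapped the untreated controls, which had 12.80, 12.66 and 11.64, and the livers at 6 h lay higher still, at 15.35, 15.36 and 15.33. A dimmer probe of Cyp2b10 changed by 2.34.

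Cyp2b23, another member of the Cyp2b family, had 11.09, 11.53 and 11.63 at 1 h and 13.47, 12.71 and 12.64 at 3 h. It rose 2.88-fold (log2 change 1.52, SE 0.29, adjusted p = 0.0341 in limma), and its second probe changed by 1.28. The controls had 11.38, 11.48 and 11.46, so that here too the livers at 1 h overlapped the controls. Cyp2b genes are close in sequence, and probes of 1 member may also take up transcripts of another.

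Of the 17 CAR-induced cytochromes P450 measured, 2 were called, both higher, against 0.122% of all genes. The list's median change was 0.38 and 15 of its 17 members were above 0. Cyp2c55, a CAR-inducible enzyme of arachidonic acid metabolism, had 6.5, 8.25 and 7.0 at 1 h and 9.52, 7.99 and 9.09 at 3 h. Its groups overlapped through replicate 2 of each time, and the change of 1.61 (SE 0.49) was not called (adjusted p = 0.204 in limma). Cyp3a11, the main drug-metabolising enzyme of the Cyp3a family, had 13.96, 14.32 and 14.24 at 1 h and 14.91, 14.45 and 14.64 at 3 h. These groups did not overlap, but the change of 0.49 (SE 0.35) was not called (adjusted p = 0.663 in limma). Cyp3a11 and Cyp2c55 had their highest levels among the control and TCP groups at 6 h, at 15.06 to 15.39 and 11.30 to 11.68. Within beadchip 2 the median of the list was 0.19, and with the beadchip as a block it was 0.33.

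**Figure D2:**
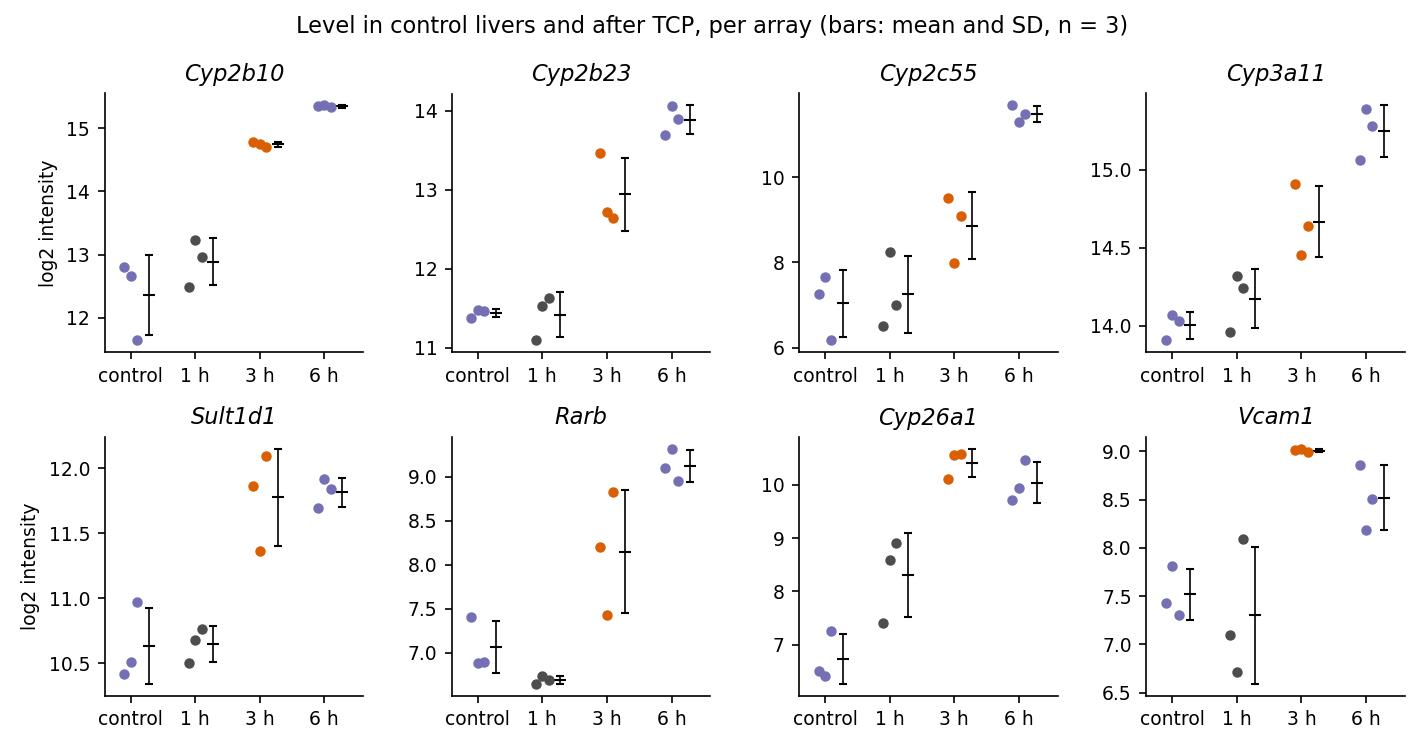
Log2 intensity (vertical axes, a separate range for each gene) of 8 genes on each array of the untreated controls and of the TCP groups at 1 h, 3 h and 6 h, with the mean and SD of the 3 arrays of a group beside the points. Cyp2b10 and Cyp2b23 overlap the controls at 1 h and lie above them at 3 h.

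Of 28 conjugating enzymes and efflux carriers, 1 was called, Sult1d1, against 0.122% of all genes called higher, and the list's median change was 0.16. Sult1d1, a sulfotransferase of the phenol type, had 10.50, 10.68 and 10.77 at 1 h and 11.86, 11.36 and 12.10 at 3 h, and it rose 2.18-fold (log2 change 1.13, SE 0.23, adjusted p = 0.0483 in limma). A dimmer probe of Sult1d1, detected on 4 of the 6 arrays, changed by 0.74. Sult2a1, which conjugates steroids and bile acids, had the largest difference of the list, with 7.45, 5.12 and 6.33 at 1 h and 8.76, 8.26 and 8.91 at 3 h, and was not called (2.34, adjusted p = 0.148 in limma). Of the 28 members, 22 were above 0 and 7 had an unadjusted p under 0.05 with higher values at 3 h, against 4.65% of all genes. None of 25 other oxidising and hydrolysing enzymes was called in limma (3 at an unadjusted p under 0.05), and their median change was 0.05. Among them Fmo5, a flavin monooxygenase, changed by 0.91 (adjusted p = 0.146 in limma).

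The receptor gene and the measured genes of heme synthesis were not called over this step. Nr1i3, which encodes CAR, had 11.39, 11.59 and 10.85 at 1 h and 11.25, 11.19 and 11.68 at 3 h, groups that overlapped (change 0.10, SE 0.24). Alas1, the rate-limiting enzyme of heme synthesis, had 14.58, 14.69 and 14.02 at 1 h against 15.25, 14.18 and 15.06 at 3 h, and its groups overlapped too (change 0.40, SE 0.31). None of 19 genes for CAR, its partner receptors and coregulators, and none of 10 genes of heme synthesis, was called in limma. At an unadjusted p under 0.05 were 1 and 2 of them, against 10.2% of all genes. The largest changes were -0.84 for both Foxo1 and Ppargc1a in the first list. In the second they were 0.77 for Tmem14c and -0.74 for Cpox. Por, the reductase that passes electrons to the P450 enzymes, was not tested here.

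Rarb, the retinoic acid receptor beta, whose own promoter holds the repeat shown above, had 6.65, 6.74 and 6.69 at 1 h and 8.20, 7.42 and 8.83 at 3 h. It rose 2.75-fold (log2 change 1.46, SE 0.27, adjusted p = 0.0312 in limma). At 1 h the livers lay below the controls (7.40, 6.88 and 6.90), and at 6 h they had reached 9.10, 9.32 and 8.96. Another probe changed by 1.08, and a probe not detected on any of the 6 arrays by 0.19. Cyp26a1, the enzyme that clears retinoic acid, had 7.42, 8.59 and 8.91 at 1 h and 10.11, 10.56 and 10.57 at 3 h. These groups did not overlap, but the spread at 1 h was wide and the change of 2.11 (SE 0.70) was not called (adjusted p = 0.249 in limma). A dimmer probe, detected on 4 of the 6 arrays, changed by 1.92 (SE 0.35) and was not among the probes tested over all genes. Here the livers at 1 h already stood above the controls, at 6.52, 6.41 and 7.26. Over the 15 genes of retinoid metabolism measured, Rarb was the 1 member called, against 0.122% of all genes called higher, and the median change was 0.03.

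The other genes called higher belong to no list. Vcam1, an adhesion molecule for leukocytes that is found on endothelial cells and macrophages, had 7.09, 6.72 and 8.09 at 1 h and 9.01, 9.02 and 8.99 at 3 h. The change was 1.71 (SE 0.31), or 3.27-fold (adjusted p = 0.0312 in limma), and the spread was large at 1 h and small at 3 h. Vps37b, a subunit of the ESCRT-I complex that sorts membrane proteins to lysosomes, showed the reverse, with 8.73, 8.67 and 8.72 at 1 h and 10.66, 9.80 and 10.39 at 3 h (change 1.58, SE 0.23, adjusted p = 0.00496 in limma). Pik3cb, the catalytic subunit p110-beta of phosphoinositide 3-kinase, had 8.94, 8.84 and 8.85 at 1 h and 9.70, 9.77 and 10.20 at 3 h. It rose 2.02-fold, and the livers at 6 h were higher again, at 10.78 to 11.26. Snhg5, a noncoding host gene of small nucleolar RNAs, had 6.43, 6.28 and 6.06 at 1 h and 7.27, 7.19 and 7.25 at 3 h (change 0.98, SE 0.15, adjusted p = 0.00750 in limma). Since its controls lay at 7.02 to 7.11, the livers at 1 h lay below the controls and those at 3 h just above them. In Gm15408 the livers at 1 h also lay below the controls, with controls at 6.69 to 7.34, 5.59 to 5.92 at 1 h and 7.01 to 7.59 at 3 h.

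The remaining genes called higher were Atp10d, a phospholipid flippase (1.46), Epop, a partner of Polycomb repressive complex 2 (1.44), Trim11, a ubiquitin ligase (1.34), Pusl1, of the pseudouridine synthase family (0.86), and 4930529C04Rik (1.84). Their adjusted p was 0.0312 to 0.0483 in limma. 4930529C04Rik was detected on 1 of the 3 arrays at 1 h, so that its level there is close to the background.

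Plxna2, a plexin receptor for semaphorins, had the largest fall among the called genes. It had 9.15, 9.27 and 9.06 at 1 h, above the controls at 8.78 each, and 7.35, 7.85 and 7.49 at 3 h, below them. The change was -1.60 (SE 0.22), a 3.03-fold lower level (adjusted p = 0.00496 in limma). Itga5, the alpha 5 subunit of the fibronectin receptor, had 7.74, 7.36 and 7.78 at 1 h and 6.27, 6.88 and 6.10 at 3 h and was 2.31-fold lower. A dimmer probe of Itga5, detected on 4 of the 6 arrays, changed by -0.72. Itpka, which phosphorylates inositol trisphosphate, had 6.93, 6.88 and 6.5 at 1 h and 4.93, 5.20 and 5.77 at 3 h, where it was detected on 2 of 3 arrays (change -1.47, SE 0.24, adjusted p = 0.0193 in limma). Dnajb4, a co-chaperone of the DnaJ family, had 6.64, 6.76 and 6.66 at 1 h and 5.67, 5.49 and 5.27 at 3 h and was 2.32-fold lower, while its second probe, detected on 1 of the 6 arrays, changed by 0.22. Mfhas1 had 9.26, 9.59 and 9.24 at 1 h and 7.80, 8.41 and 8.46 at 3 h and was 2.20-fold lower, while its second probe, also detected on 1 array, changed by -0.30. Dtx2, a ubiquitin ligase of the deltex family that acts in Notch signalling, was 2.08-fold lower by its brightest probe, whereas its other probes changed by -0.39 and -0.09.

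The brightest probes of Zfp41, Fchsd1 and Tram2 were above background on no array at 3 h. Zfp41, a zinc finger protein, had 6.71, 6.5 and 5.97 at 1 h (adjusted p = 0.0387 in limma). Another probe of it, detected on 4 of the 6 arrays, changed by -0.79. Fchsd1, a membrane-bending adaptor, had 5.77, 5.72 and 5.57 at 1 h (adjusted p = 0.0341 in limma), and another probe, also detected on 4 arrays, changed by -0.18. Since the probes disagree in size, no fold is given for these genes. Tram2, a protein of the secretory route with a single probe, was at least 1.42-fold lower, a bound that sets the mean at 1 h against the dimmest detected signal of the arrays at 3 h. Serpina9, a serine protease inhibitor, had 6.10, 6.22 and 6.57 at 1 h and 5.19, 4.70 and 4.40 at 3 h, where it was detected on 1 of 3 arrays (adjusted p = 0.0341 in limma).

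When the model held the beadchip as a block, all 24 genes kept their sign and 6 stayed called (Cyp2b10, Vcam1, Vps37b, Snhg5, Itpka and Plxna2). Within beadchip 2, 2 arrays against 2, the sign was fixed by the choice of genes whose groups do not overlap, and none passed the adjustment over all genes (lowest adjusted p = 0.168 in limma, with 836 genes at an unadjusted p under 0.05). The change of Cyp2b10 was 1.67 with the block and 1.88 within beadchip 2, and that of Plxna2 was -1.60 and -1.54. In a model of the 6 arrays alone no gene was called (lowest adjusted p = 0.0651 in limma), although 1160 genes had an unadjusted p under 0.05. In the authors' own normalised values the change was more than 1.5 times smaller for 19 of the 24 genes, for example 0.35 for 4930529C04Rik, 0.32 for Epop, -0.23 for Dnajb4, 0.26 for Snhg5, 0.82 for Vcam1 and -0.85 for Plxna2. It was 1.95 for Cyp2b10 and 1.52 for Cyp2b23 there. In these values 10 genes were called, of which 7 were among the 24 (Cyp2b10, Cyp2b23, Sult1d1, Pik3cb, Vps37b, Mfhas1 and Plxna2).

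**Figure D3:**
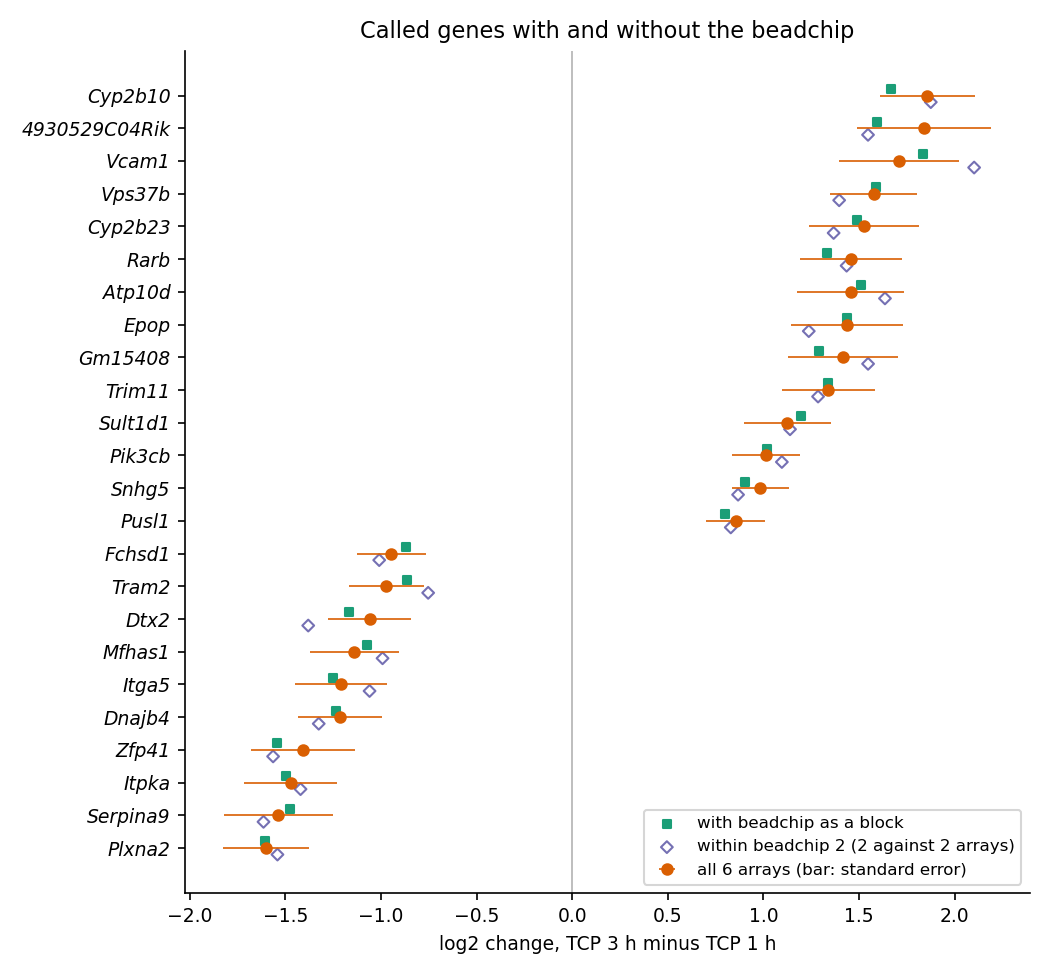
Log2 change from 1 to 3 h (horizontal axis) of the 24 called genes over all 6 arrays with its standard error, with the beadchip as a block, and within beadchip 2 alone. The estimates for Cyp2b10 are 1.86, 1.67 and 1.88, and those within beadchip 2 had to keep their sign because the groups do not overlap.

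Of the 750 genes of the 51 lists that were measured, 5 were called, 4 higher (Cyp2b10, Cyp2b23, Sult1d1 and Rarb) and 1 lower (Dnajb4), against 0.122% and 0.0874% of all genes in these directions. This count was 1 (Cyp2b10) without any single liver other than TCP 3 h replicate 2, and 15 without that liver. The lists below are therefore described by their medians and by members that were not called, as values.

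**Figure D4:**
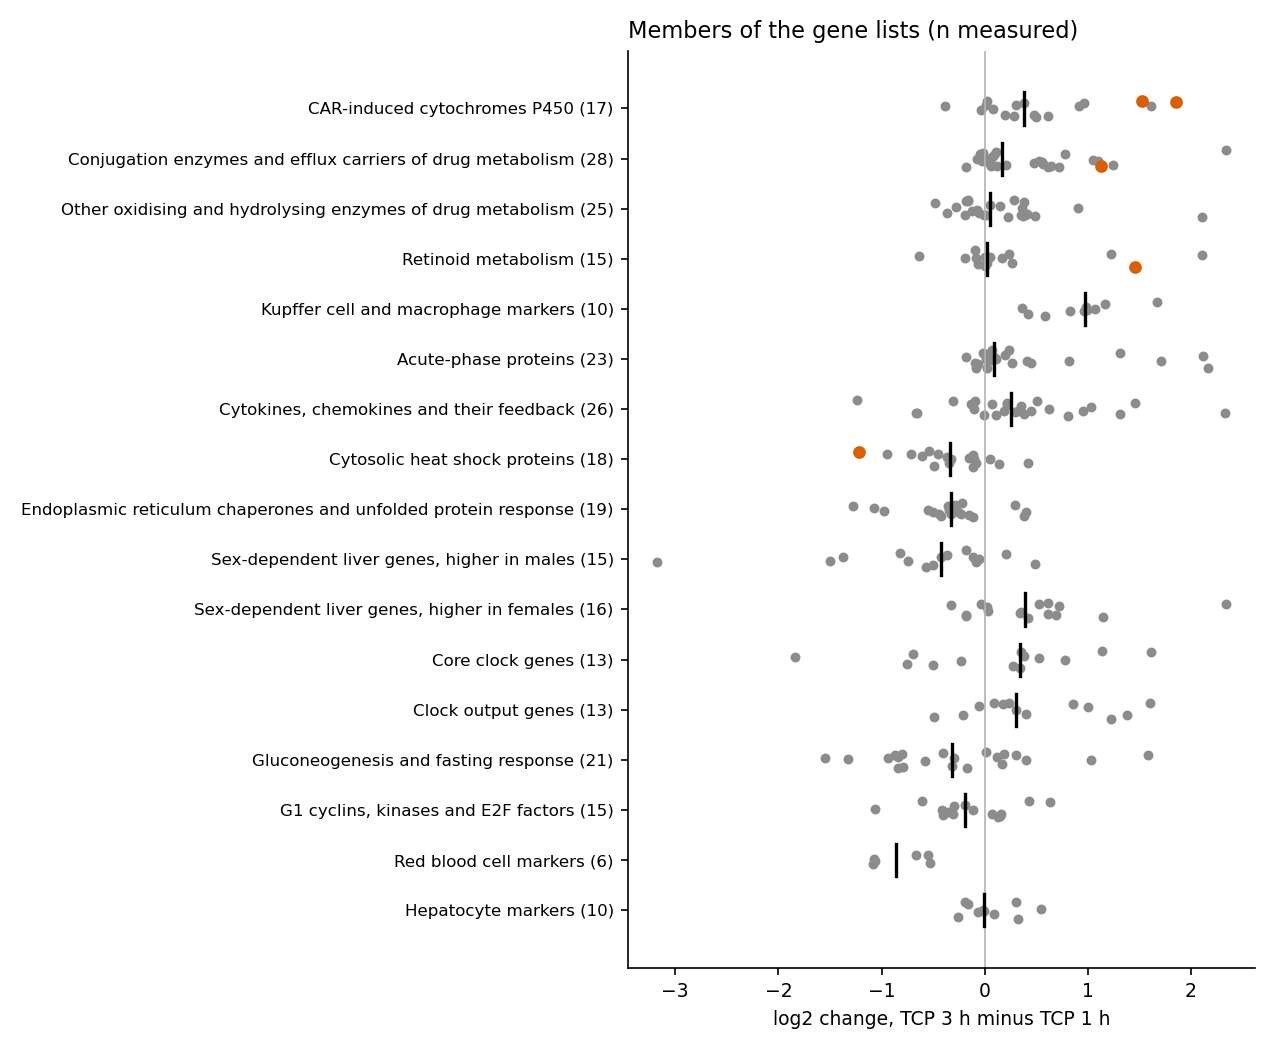
Log2 change from 1 to 3 h after TCP (horizontal axis) of each measured member of 17 lists, with the number of members in brackets. Orange points are called, grey points are not, and black bars are medians, of which that of the Kupffer cell and macrophage markers is highest (0.97) and that of the red blood cell markers lowest (-0.86).

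Markers of resident liver macrophages were higher at 3 h than at 1 h as a group, and none was called. All 10 Kupffer cell and macrophage markers measured were above 0, with a median of 0.97 and a range of 0.36 to 1.67, and 7 of the 10 had groups that did not overlap, against 6.57% of all genes in that direction. Their mean level was 6.36 to 6.86 at 1 h and 7.37 to 7.77 at 3 h, and the median change was 0.98 within beadchip 2. Cd163, a scavenger receptor for haptoglobin-bound hemoglobin, had 6.27, 5.62 and 5.71 at 1 h and 7.56, 7.61 and 7.46 at 3 h (change 1.67, adjusted p = 0.234 in limma). Its controls had 6.54, 6.59 and 5.79, and the livers at 6 h had 7.99, 6.15 and 6.11. C1qb, a chain of complement C1q, had 7.61, 7.07 and 7.64 at 1 h and 8.40, 9.09 and 8.34 at 3 h (change 1.17, adjusted p = 0.234 in limma). The controls of C1qb had 8.65, 8.43 and 7.86, above every liver at 1 h and overlapping those at 3 h. At 6 h its levels were 9.62, 8.49 and 8.68. In bulk tissue, more cells of a type and more RNA per cell cannot be told apart. Vcam1, described above, moved in the same direction, and the part of these cells in its change was not tested.

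Markers of other cells were more mixed. Of 11 sinusoidal endothelial markers, 7 were above 0 and the median was 0.11, with Lyve1, a hyaluronan receptor, at 1.27 (adjusted p = 0.148 in limma). Hepatocyte markers had a median of -0.01, neutrophil markers of 0.09 and lymphocyte markers of 0.33. Only 8 of 11 neutrophil and 5 of 14 lymphocyte markers were measured. Their mean levels at 1 h, 4.96 to 5.64 and 4.69 to 5.32, were near the background, so these 2 medians say little. Of 10 stellate cell and fibroblast markers, 7 were above 0 and the median was 0.30, with Lrat at 1.22 (adjusted p = 0.204 in limma). All 6 red blood cell markers were below 0, with a median of -0.86 and a mean level of 10.33 to 11.72 at 1 h and of 10.14 to 10.29 at 3 h. Among them Alas2, which makes heme in red cell precursors, had 9.54, 9.14 and 9.20 at 1 h and 8.41, 8.49 and 7.73 at 3 h and was not called (-1.08, adjusted p = 0.148 in limma).

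Inflammatory genes gave large values in a few members. Cxcl1, a chemokine for neutrophils, had 8.37, 9.37 and 8.36 at 1 h and 10.53, 10.26 and 12.31 at 3 h, groups that did not overlap (change 2.33, adjusted p = 0.0835 in limma). Its controls had 10.05, 10.14 and 9.39, above every liver at 1 h and above those at 6 h (9.20, 7.79 and 8.49). Lcn2, an iron-binding acute-phase protein, had 9.36, 7.72 and 9.43 at 1 h and 10.30, 10.91 and 11.79 at 3 h (2.16, adjusted p = 0.204 in limma). Saa1, serum amyloid A, had 10.95, 10.11 and 11.63 at 1 h and 12.92, 12.41 and 13.70 at 3 h (2.12, adjusted p = 0.205 in limma). The list medians were near that of all genes or moderately above it, at 0.09 over 23 acute-phase proteins and 0.26 over 26 cytokines, chemokines and their feedback genes. Of these 26, 18 were above 0. The lowest change among them was -1.24, that of Tnfrsf1b, a receptor for tumour necrosis factor (adjusted p = 0.168 in limma).

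Chaperones had lower values at 3 h. Of 18 cytosolic heat shock proteins, 15 were below 0, the median was -0.33, and 5 had an unadjusted p under 0.05 with lower values, against 5.59% of all genes, among them the called Dnajb4. Of 19 chaperones of the endoplasmic reticulum and genes of the unfolded protein response, 16 were below 0, the median was also -0.33, and none was called. At an unadjusted p under 0.05 in limma, 4 of them were lower. Creld2, a secreted chaperone of that response, had 9.96, 10.00 and 11.03 at 1 h and 9.25, 8.83 and 9.08 at 3 h (-1.28, adjusted p = 0.234 in limma). Within beadchip 2 these medians were -0.32 and -0.22.

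Genes that mouse liver expresses more in males had a median of -0.42 over 15 members, 13 of them below 0. Genes expressed more in females had a median of 0.39 over 16 members, 12 above 0, although all mice were female. No member was called in limma, against 0.21% of all genes. At an unadjusted p under 0.05, 4 male-list genes were lower and 2 female-list genes higher, against 5.59% and 4.65% of all genes. Hsd3b5, a hydroxysteroid dehydrogenase typical of male liver, had 11.48, 10.94 and 11.18 at 1 h and 8.58, 9.57 and 5.91 at 3 h. Its change of -3.18 was the lowest of all genes tested and was not called (adjusted p = 0.243 in limma), with a wide spread at 3 h. The controls of Hsd3b5 had 9.45, 9.30 and 9.73, below every liver at 1 h. At 3 h replicate 2 lay among the controls and the other livers below them. Sult2a1, given above, is a member of the female list. With the beadchip as a block the medians were -0.41 and 0.18.

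Genes of the circadian clock varied among livers of 1 time. Dbp, a clock output transcription factor, had 12.50, 10.88 and 8.62 at 1 h and 13.02, 10.63 and 12.51 at 3 h, and its change was 1.38 over all arrays but -0.12 within beadchip 2. Arntl, the partner of CLOCK, had 5.68, 6.73 and 7.78 at 1 h and 5.44, 6.98 and 5.50 at 3 h (change -0.75, SE 0.57). Per1, a clock repressor that is also induced by glucocorticoids, had 9.99, 9.32 and 9.60 at 1 h and 7.19, 9.21 and 6.98 at 3 h (change -1.84, adjusted p = 0.148 in limma). In each of these genes replicate 2 at 3 h lay apart from the other livers at 3 h and within or beside the values at 1 h. None of 13 core clock genes and none of 13 clock output genes was called in limma, against 0.21% of all genes. At an unadjusted p under 0.05, 2 core clock genes were higher and 2 lower, and 4 clock output genes were higher. These shares over all genes were 4.65% higher and 5.59% lower. Ciart, a clock repressor, changed by 1.61 and Usp2, a deubiquitinase that follows the clock, also by 1.61. No time-matched control was measured, and time of day and TCP cannot be told apart here.

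TCP 3 h replicate 2 also stood apart in Igfbp1, Pck1 and Sgk1. Igfbp1, an insulin-repressed binding protein for insulin-like growth factors, had 6.88, 6.87 and 8.75 at 1 h and 5.37, 7.69 and 5.48 at 3 h (change -1.32, SE 0.86). Pck1, the rate-limiting enzyme of gluconeogenesis, had 10.50, 10.44 and 10.77 at 1 h and 9.36, 10.35 and 9.62 at 3 h (change -0.79, adjusted p = 0.356 in limma). Txnip, which glucose induces, had 10.42, 10.81 and 9.83 at 1 h and 11.82, 11.70 and 12.30 at 3 h, where the groups did not overlap (change 1.59, adjusted p = 0.159 in limma). Sgk1, a kinase induced by glucocorticoids, had 11.25, 10.44 and 11.11 at 1 h and 10.24, 11.03 and 9.76 at 3 h (change -0.59, SE 0.28). None of 21 genes of gluconeogenesis and fasting and none of 20 glucocorticoid-responsive genes was called in limma, against 0.21% of all genes. At an unadjusted p under 0.05, 1 and 2 of them were higher, against 4.65% of all genes. In the other direction 2 and 5 were lower, against 5.59%.

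Genes of the entry into the cell cycle did not pass the test over this step. Ccnd1, which encodes cyclin D1 and is a known TCP-responsive gene in mouse liver, had 11.78 to 12.63 at 1 h and 11.90 to 12.75 at 3 h. These groups overlapped (change 0.13, SE 0.30), as they did with the controls at 12.25 to 12.60, whereas the livers at 6 h had 13.49 to 13.90. Gadd45b, a stress-inducible partner of CAR, had 9.23, 9.56 and 8.54 at 1 h and 9.08, 10.05 and 10.11 at 3 h (change 0.63, SE 0.75), both far above the controls at 5.31 to 5.69. Cebpb, a transcription factor of the early regenerative response, had 13.30, 13.20 and 13.29 at 1 h and 12.85, 13.44 and 13.25 at 3 h (change -0.08, SE 0.23). Myc was detected on none of the arrays at 1 h and on 1 at 3 h. The immediate-early genes Fos (change -0.02, SE 0.76) and Egr1 (change 0.64, SE 0.61) overlapped between the times. Rb1, the retinoblastoma repressor of the cell cycle, had 8.22, 8.11 and 8.09 at 1 h and 6.54, 7.77 and 6.93 at 3 h (change -1.06, adjusted p = 0.0684 in limma). This was the lowest p among 15 genes of the G1 phase, none of which was called in limma. At an unadjusted p under 0.05, 3 of the 15 were lower, against 5.59% of all genes. Gadd45a, a growth arrest gene, had 7.86, 8.42 and 7.51 at 1 h and 10.60, 8.72 and 11.29 at 3 h (change 2.27, adjusted p = 0.184 in limma).

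The same step after PH, 1 h against 3 h with 3 livers each, called 193 genes (1.69% of all), 128 of them higher (1.12%) and 65 lower (0.568%), and the difference between the steps called 17 (0.149%), 15 of them with a lower step after TCP (0.131%) and 2 with a higher one (0.0175%). Among the 24 genes called after TCP, 2 differed from PH. Itpka changed by -1.47 after TCP and by 0.28 after PH (difference -1.75, SE 0.34, adjusted p = 0.0493 in limma). Tram2 also passed (adjusted p = 0.0188 in limma), but it was above background on no array at 3 h after TCP or at 1 h after PH, so the size of its difference is not measured. For Cyp2b10 the difference was not called, and the step after PH was 1.40 and itself called (adjusted p = 0.0118 in limma), as it was for Snhg5 (1.17) and for Zfp41. After PH the Cyp2b10 levels were 11.55, 11.37 and 11.33 at 1 h and 12.63, 13.14 and 12.7 at 3 h. The controls had 12.80, 12.66 and 11.64, so that this step started below the controls, whereas the step after TCP started at levels that overlapped them. The difference was 0.45 (SE 0.35) for Cyp2b10, 1.63 (SE 0.38) for Rarb and 1.43 (SE 0.32) for Sult1d1, with adjusted p of 0.719, 0.0831 and 0.0831 in limma.

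Among the genes with the largest differences were 2 receptors of the tumour necrosis factor receptor family and a lipase inhibitor. Tnfrsf12a, the receptor for the cytokine TWEAK, changed by -0.14 after TCP and by 4.02 after PH (difference -4.16, SE 0.82, adjusted p = 0.0493 in limma). Angptl4, a secreted inhibitor of lipoprotein lipase, changed by -0.32 and by 2.84 (difference -3.16, SE 0.46, adjusted p = 0.0102 in limma). Its levels after PH were 9.89, 9.455 and 8.545 at 1 h and 12.385, 11.377 and 12.656 at 3 h. The controls had 11.961, 11.945 and 12.297, so that its step after PH started below the controls and ended around them. The TCP livers had 12.49 to 12.573 at 1 h and 11.784 to 12.446 at 3 h. Tnfrsf1b, a receptor for tumour necrosis factor, changed by -1.24 and by 1.77 (difference -3.0, SE 0.48, adjusted p = 0.0188 in limma). In the other direction Acvr2b, an activin receptor, changed by 0.25 after TCP and by -1.46 after PH, and Nat2, an arylamine acetyltransferase, by 0.63 and by -0.87. With the beadchip as a block none of the 17 remained called and 1 other gene was, and the PH and TCP arrays of this comparison shared only beadchip 4. Among the TCP livers, leaving out replicate 1 at 1 h turned the count of 17 into 0 (limma, with 1061 genes at an unadjusted p under 0.05), leaving out replicate 2 or 3 at 1 h into 10, and leaving out replicates 1, 2 and 3 at 3 h into 8, 48 and 5. Among the PH livers, leaving out replicate 1 at 1 h gave 1, replicate 3 at 3 h gave 2 and replicate 2 at 3 h gave 220.

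**Figure D5:**
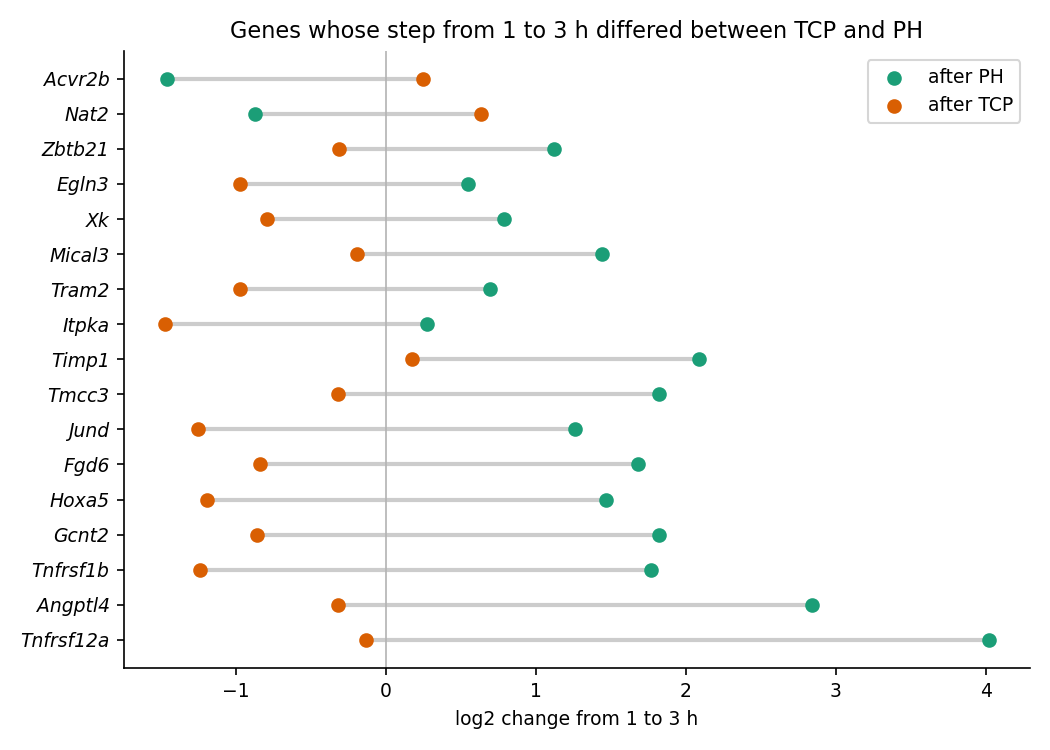
Log2 change from 1 to 3 h (horizontal axis) after TCP and after PH in the 17 genes whose steps differed, each joined by a grey line. In Tnfrsf12a the step is 4.02 after PH and -0.14 after TCP, and in Acvr2b it is -1.46 after PH and 0.25 after TCP. Tram2 and Mical3 were above background on no array at 3 h after TCP.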

How the data were processed

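Liver RNA of each mouse was labelled and hybridised to 1 Illumina bead array. The labels name the MouseRef-8 beadchip and the methods the WG-6, and the table holds 45281 probes. The deposited table gives, for each probe and array, its signal intensity and the detection p-value of that probe, as exported from BeadStudio by the authors without normalisation between arrays. A second deposited table holds the authors' quantile-normalised log2 values (the log base is inferred from the intensities) and served as an alternative.

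Intensities were background corrected (normexp, offset 16, negative controls inferred from the detection p-values), quantile normalised and log2 transformed with limma 3.58.1 in R 4.3.3. Probes detected (p under 0.05) on at least 3 of 21 arrays and with 1 gene symbol in the platform annotation were kept (17970), and the brightest stood for each of 11442 genes. One limma model of 7 groups gave the change, its standard error and adjusted p-values over all genes, and was tested on simulated data. SDs are over 3 arrays. The number of arrays limits the precision.

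Named genes were all called genes, a fixed set of genes of interest, and called or most-changed members of the lists. The genes just outside the threshold were added after their values were seen. The comparison and the lists were chosen with earlier results of these data known. Alternatives covered normalisation, filters, the beadchip, and leaving out each liver. Replicate numbers come from the titles and do not mark shared animals.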

Additional observations from a re-analysis of the deposited data

Results flagged for a closer look

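In 17 genes the step from 1 to 3 h differed between TCP and PH by a test of the difference itself (limma, adjusted p of 0.0102 to 0.0493). The step after TCP minus that after PH, on the log2 scale, was 1.71 for Acvr2b and 1.5 for Nat2. It was -4.16 for Tnfrsf12a, -3.16 for Angptl4, -3.0 for Tnfrsf1b, -2.68 for Gcnt2, -2.66 for Hoxa5, -2.52 for Fgd6, -2.51 for Jund and -2.14 for Tmcc3. It was -1.91 for Timp1, -1.75 for Itpka, -1.67 for Tram2, -1.63 for Mical3, -1.58 for Xk, -1.52 for Egln3 and -1.43 for Zbtb21. With the beadchip as a block all 17 kept their sign and none passed the threshold, and the PH and TCP livers lay mostly on different beadchips. Tram2 was above background on no array at 3 h after TCP or 1 h after PH, and Mical3 on none at 3 h after TCP and on 1 of 3 at 1 h after TCP and after PH. Timp1 was above background on 1 of 3 arrays in each of these groups, and Tmcc3 on 1 of 3 at 3 h after TCP, so that the sizes given for these 4 genes include levels at the background. To a lesser extent this also holds for Hoxa5, above background on 2 of 3 arrays at 3 h after TCP and at 1 h after PH. Xk, Jund and Itpka were above background on 2 of 3 arrays at 3 h after TCP.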

How the results depend on the processing

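With 3 livers a group and no vehicle or time-matched control, calls rested on few arrays. Against 24 genes called from 1 to 3 h after TCP, the total called was 10 in the authors' values, 1 with median scaling, 11 without a detection filter, 12 with the methods' intensity filter, 8 with the beadchip as a block and 43 at an adjusted p under 0.1. It was 0 in limma within beadchip 2 (836 genes at an unadjusted p under 0.05), with the 6 arrays alone (1160 unadjusted) or normalised alone (1167 unadjusted), and 0 by the methods' F-test (997 unadjusted). Leaving out 1 liver gave 4 to 41. No called gene changed sign under any alternative run, which the choice of groups that do not overlap fixes for the fits on fewer arrays. The replicate block over 6 arrays called 0 genes (1120 at an unadjusted p under 0.05), and same-numbered livers deviated with correlations of 0.0108, 0.0168 and -0.1004, so that the numbers do not pair livers. The replicate block over 12 arrays also called 0 differences from PH (1146 at an unadjusted p under 0.05). Against the 17 differences from PH called, the total was 5 with median scaling, 3 in the authors' values, 1 with the beadchip as a block (none of the 17), and 0 to 220 without 1 liver. Median scaling moved the median of the difference from PH over all genes to 0.11, from 0.02. The 5 called list genes became 1 with median scaling, 3 in the authors' values, 0 with the 6 arrays alone (138 at an unadjusted p under 0.05), 1 with the block, 0 within beadchip 2 (98 unadjusted) and 1 to 15 without 1 liver.

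Some changes in genes that were not called turned sign, mostly changes near 0 but also those of Dbp (1.38), Arntl (-0.75) and Alas1 (0.40), and the cause was not tested. With the beadchip as a block Ccnd1 had -0.0318, Cebpb 0.0789, Nr1i3 -0.0319 and Tnfrsf12a 0.0501. Within beadchip 2 Alas1 had -0.0205, Arntl 0.0414, Ccnd1 -0.255, Cebpb 0.0974, Dbp -0.12, Nr1i3 -0.0536 and Tnfrsf12a 0.0209, and Fos had 0.0096 with median scaling. Leaving out 1 liver gave -0.135 to 0.405 for Ccnd1, -0.211 to 0.0845 for Cebpb, -0.257 to 0.272 for Fos, -0.115 to 0.258 for Nr1i3 and -0.274 to 0.104 for Tnfrsf12a.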
